A study of Rattus norvegicus with 6 samples.

Results

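The carnitine shuttle was followed through 6 genes of liver RNA, Cpt1a, Cpt2, Slc25a20, Crat, Crot and Slc22a5, taken by gene name from the 32930 gene rows of the deposited table. Each name matched 1 row, and all 6 genes passed the filter on low counts that left 18455 genes for testing. The HFD group held 3 livers of animals on a high-fat diet with 0.5% CMC-Na, the vehicle. The HTG group held 3 livers of animals on that diet with Huazhuo Tiaozhi granule, a formula of Chinese herbs, and the intervention lasted 12 weeks by the labels. All 6 animals thus received the high-fat diet, and no group on a normal diet was analysed here. The labels name rats without giving their strain, sex or age, the methods for the sequencing name C57BL/6 J mice, and the rows are mouse Ensembl genes, so values were read as those of mouse genes. The treatment label of the HTG animals is spelled HCG, and the titles were followed. The labels call the livers fatty, and the design text counts 6 animals for the 6 libraries. A fast before the livers were taken is described for the rats of the study, and whether it applied to these animals is not stated.

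Long-chain fatty acids cannot cross the inner mitochondrial membrane as acyl-CoA. CPT1 on the outer membrane moves the acyl group onto carnitine, the carrier encoded by Slc25a20 exchanges acylcarnitine for free carnitine across the inner membrane, and CPT2 returns the acyl group to CoA inside. The CPT1 step is known as the main control point of fatty acid oxidation in liver and is inhibited by malonyl-CoA, and its liver form is encoded by Cpt1a. Slc22a5 brings carnitine into the cell, while Crat and Crot handle short and medium-chain acyl groups in mitochondria and peroxisomes.

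The estimated counts summed to between 50648778 and 90563477 per library. Among low counts 4 was more frequent (6450 values) than 3 (2549) or 5 (1757), but values between the multiples of 4 also occurred, so the number of fragments behind a count is not known. If 1 fragment gave 4 counts, the libraries held 12662194 to 22640869 fragments and the limit that a count of 0 allows was 12 counts, for counting error only, and every count of the 6 genes was at least 579. CPM are counts scaled to the library size with TMM factors, and FPKM are fragments scaled to transcript length and library size. Hepatocyte markers were abundant, with a summed level of 89185 to 101356 CPM in the HFD libraries and 86244 to 88321 CPM in the HTG libraries over the 9 of 10 listed genes in the table, of which 3 were lower and 1 higher in the HTG group at an unadjusted p under 0.05. The summed levels of the Kupffer cell and leukocyte, stellate, endothelial, biliary, red cell and pancreas markers overlapped between the groups. Single genes within these sums did not. Adgre1 (log2 fold change -1.53), Csf1r, Reln, Epcam and Alas2 were lower in the HTG group without overlap, as were 15.5% of all genes. Des and Sox9 (0.79) were higher without overlap. Spp1 made up most of the biliary sum and Cela1 nearly all of the pancreas sum. The 5 skeletal muscle markers were at or under 12 counts in every library. Mitochondrially encoded mRNAs took 4.82% to 6.31% of the counts in the HFD group and 9.12% to 14.9% in the HTG group.

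Cpt1a (ENSMUSG00000024900, chromosome 19, 3372334 to 3435733, in the table's coordinates, whose build is not stated) was the member with lower values in every HTG library. Its levels in libraries 1, 2 and 3 were 347, 612 and 366 CPM for the HFD group and 237, 192 and 151 CPM for the HTG group. The groups did not overlap, and HFD library 2 stood well above the other HFD libraries. The mean was 442 ± 148 CPM in the HFD group and 193 ± 43 CPM in the HTG group (SD, n = 3 per group). The log2 fold change, HTG minus HFD, was -1.19, with a 95% interval from -1.85 to -0.53, or a level 0.438 times that of the HFD group. In edgeR's quasi-likelihood test the unadjusted p was 0.00304 and the p adjusted over all genes tested by Benjamini-Hochberg was 0.0654, so Cpt1a did not pass 0.05. The call changed with the tool and, in limma on FPKM, with the filter. FPKM was tested in limma alone, so an effect of the unit cannot be told apart from that of the tool. The adjusted p was 0.00126 in DESeq2, 0.0455 in limma on log2(FPKM + 0.1) with a filter on low FPKM and 0.104 in limma without that filter. Without HFD library 2 the log2 fold change was -0.89 (edgeR, unadjusted p = 0.00853, adjusted p = 0.135). The summed level of the hepatocyte markers and the share of mitochondrial mRNAs given above also separated the groups. Most of that sum was Alb, with 57854 to 74503 CPM in the HFD group and 53506 to 55201 CPM in the HTG group. Of the 9 markers, 4 were lower in the HTG group without overlap, Alb among them. Apoa1 was higher without overlap, and Ttr, Cyp2e1, Pck1 and Asgr1 overlapped. The part of the markers and the mitochondrial mRNAs in the lower Cpt1a values was not tested. In such tissue RNA, fewer cells of a type and less RNA per cell cannot be told apart.

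Cpt2 (ENSMUSG00000028607, chromosome 4, 107761178 to 107780807), the inner-membrane transferase, had 85.9, 168 and 106 CPM in the HFD libraries and 114, 68.9 and 57.2 CPM in the HTG libraries, in the order of their numbers. HTG library 1 lay above HFD libraries 1 and 3, and only HTG libraries 2 and 3 lay below all HFD libraries. The log2 fold change was -0.58 (95% interval -1.34 to 0.18, edgeR adjusted p = 0.318), which covers levels from 0.396 to 1.13 times those of the HFD group. It was -0.26 without HFD library 2 and -0.96 without HTG library 1. Slc25a20 (ENSMUSG00000032602, chromosome 9, 108539287 to 108561840), the carrier between both transferases, gave the same picture. It had 78.2, 152 and 70.3 CPM in the HFD libraries and 112, 60.3 and 53.5 CPM in the HTG libraries. Again HFD library 2 was highest and HTG library 1 came next. The log2 fold change was -0.41 (95% interval -1.26 to 0.45, edgeR adjusted p = 0.532), and without HFD library 2 it was 0.02, with the sign turned.

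Crat (ENSMUSG00000026853, chromosome 2, 30290483 to 30305783), carnitine acetyltransferase, varied most among the 6 genes, by 13.3 times between its lowest and highest library. It had 24.6, 172 and 31.8 CPM in the HFD libraries and 64.9, 19.9 and 12.9 CPM in the HTG libraries. HFD library 2 held 5.41 times the level of the next HFD library, while HFD libraries 1 and 3 lay inside the range of the HTG group. The log2 fold change of -1.22 was numerically as far below 0 as that of Cpt1a, yet its 95% interval ran from -3.11 to 0.66 (edgeR, adjusted p = 0.395), and without HFD library 2 the value was 0.21. Crat overlaps Dolpp1 and an antisense transcript, Gm16323, both on the opposite strand, and whether the counting used strand is not stated. Crot (ENSMUSG00000003623, chromosome 5, 9016033 to 9047324), the peroxisomal octanoyltransferase, had 208, 579 and 142 CPM in the HFD libraries and 367, 234 and 136 CPM in the HTG libraries. HTG libraries 1 and 2 were above HFD libraries 1 and 3. Its log2 fold change was -0.33 (95% interval -1.57 to 0.90, edgeR adjusted p = 0.738) and became 0.49 without HFD library 2.

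Slc22a5 (ENSMUSG00000018900, chromosome 11, 53755368 to 53782486) encodes OCTN2, the sodium-dependent carnitine importer of the plasma membrane. It had 25.5, 127 and 14.98 CPM in the HFD libraries and 24.5, 21.6 and 12.4 CPM in the HTG libraries. Apart from HFD library 2 the values of both groups covered nearly the same range. Its log2 fold change was -1.51 (95% interval -3.14 to 0.11, edgeR adjusted p = 0.232). It was -0.06 without HFD library 2, -0.93 with the replicate number as a block and -0.997 in limma on log2(FPKM + 0.1). Slc22a5 has close relatives among the genes counted, Slc22a4 and Slc22a21, with which it could share reads.

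**Figure D1:**
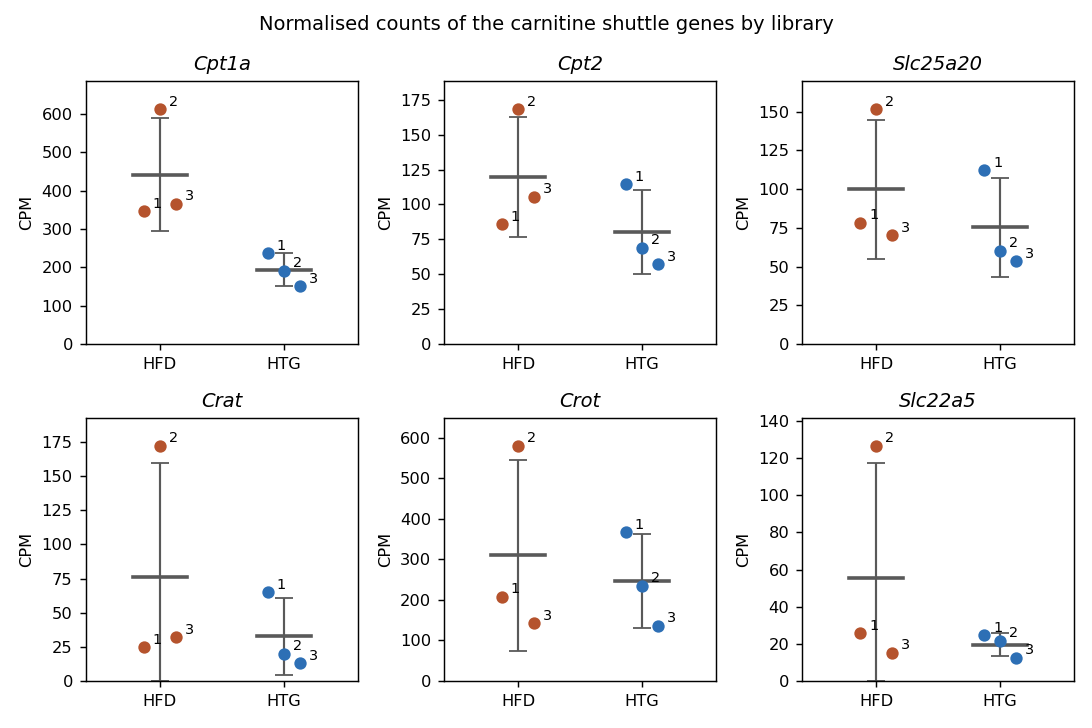
TMM-scaled CPM of the 6 genes on linear axes, 1 point per library with its replicate number, with the mean (thick line) and SD (error bars, stopped at 0) of the 3 libraries of each group. The groups are apart for Cpt1a alone, and HFD library 2 is the highest point in every panel.

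Read together, the 6 genes had fitted values below 0, with a median log2 fold change of -0.89 against 0.03 over all genes tested. Of all genes tested, 48.4% had a value below 0. At an adjusted p under 0.05 in edgeR, 0 of the 6 genes were lower and 0 higher, against 0.00542% of all genes called lower. With the unadjusted p, 1 of the 6, Cpt1a, was under 0.05 and lower (12.4% of all genes), and 0 were under 0.05 and higher (12.3% of all genes). When a log2 fold change under -1 was required as well, 1 of the 6, Cpt1a, still passed, as did 3.88% of all genes. The groups did not overlap in 1 of the 6, again Cpt1a, against 15.5% of all genes lower without overlap. With an adjusted p under 0.05 in DESeq2, 1 of the 6 was lower, against 6.06% of the genes with an adjusted p there. A count of 1 in 6 is close to the shares of 12.4% and 15.5% of all genes. In edgeR the median of the 6 genes was -0.02 without HFD library 2 and -1.18 without HTG library 1, so in these fits it rested on HFD library 2. On log2(FPKM + 0.1) without HFD library 2, the differences were -0.99 for Cpt1a, -0.40 for Cpt2 and -0.15 for Slc25a20. They were -0.21 for Crat, -0.15 for Slc22a5 and 0.31 for Crot. Without HTG library 1, the unadjusted p was under 0.05 with a lower level for 4 of the 6 genes, Cpt1a, Cpt2, Slc25a20 and Crat, against 14.8% of the genes tested in that fit.

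**Figure D2:**
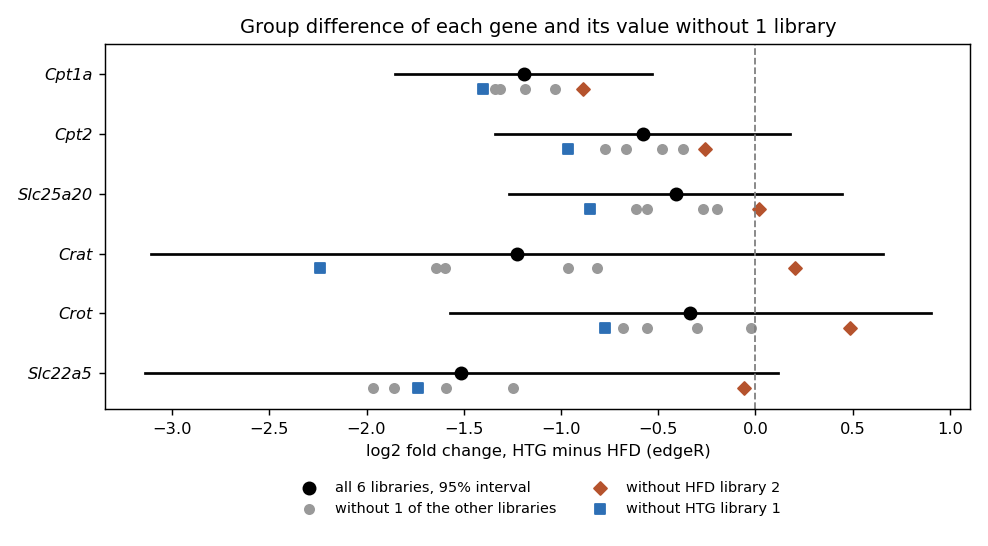
Log2 fold change of each gene, HTG minus HFD, from edgeR. Black points and lines are the values and 95% intervals from all 6 libraries, and the smaller symbols below are the values with 1 library left out. The interval of Cpt1a lies below 0, the other 5 intervals cross 0, and leaving out HFD library 2 moves Slc25a20, Crat and Crot above 0.

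What the genes shared was their highest library and their order within the HTG group, rather than a separation of the groups. The full order differed by gene. HFD library 1 lay below HFD library 3 for Cpt1a, Cpt2 and Crat, and above it for Slc25a20, Crot and Slc22a5. HFD library 2 was the highest of the 6 libraries in 6 of 6 genes, against 21.4% of all genes tested. It held at least 1.5 times the level of each other HFD library in 6 of 6 genes, from 1.59 times for Cpt2 to 5.41 times for Crat, against 7.75% of all genes. Within the HTG group, library 1 was highest and library 3 lowest in 6 of 6 genes, which held for 15.5% of all genes. HTG library 1 was 1.57 times HTG library 3 for Cpt1a, 2.69 times for Crot and 5.02 times for Crat. These patterns were chosen after the values were seen, and the 6 genes are not independent of each other. The 6 genes took 0.170% of all counts in HFD library 2 and between 0.0392% and 0.0913% in the other libraries. The spread within a group therefore differed widely by gene. The coefficient of variation in the HFD group was 33.5% for Cpt1a and 35.8% for Cpt2, against 109% for Crat and 111% for Slc22a5. HFD library 2 also had the lowest summed level of endothelial markers, 46.5 CPM against 86.6 and 106 CPM in the other HFD libraries, and of Kupffer cell and leukocyte markers within its group, 301 CPM against 484 and 495 CPM. The adipocyte markers in the table, 4 of 5 listed, summed to 14.6 CPM in HFD library 2 and to at most 2.26 CPM in the others. That sum was Cidec, a lipid droplet gene, alone, while Adipoq was at 0 in all libraries. The part of these differences in the values of HFD library 2 was not tested.

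**Figure D3:**
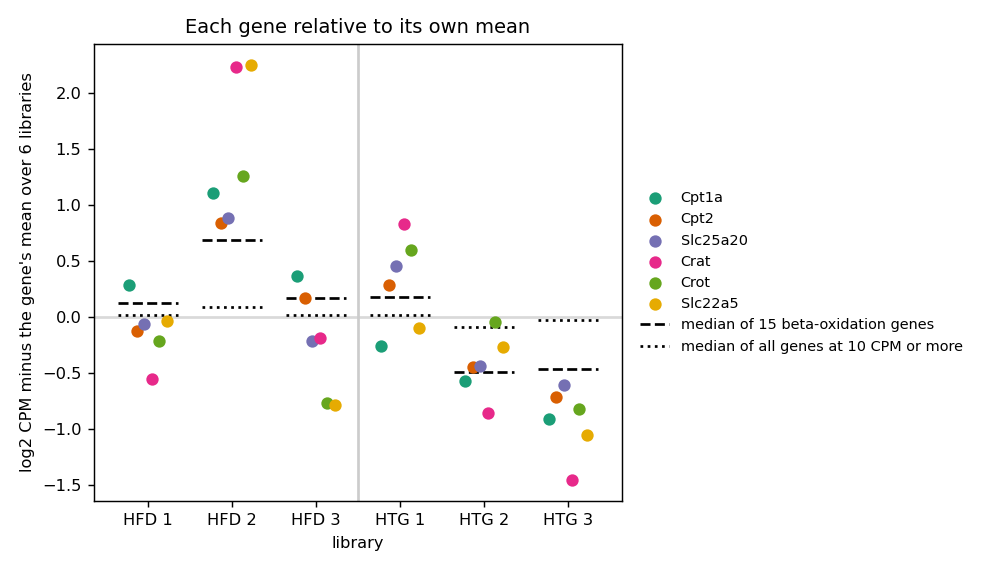
Log2 CPM of each gene minus its own mean over the 6 libraries, 1 coloured point per gene and library. Dashed lines are the medians of the 15 mitochondrial beta-oxidation genes and dotted lines those of 8014 genes with a mean of at least 10 CPM. All 6 genes lie above 0 in HFD library 2 and below 0 in HTG libraries 2 and 3, and Cpt1a is the one gene above 0 in every HFD library and below 0 in every HTG library.

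Levels of different genes were compared on FPKM. In the HFD group the mean FPKM was 55.2 ± 14.96 for Cpt1a, 53.3 ± 37.4 for Crot and 47.8 ± 14.2 for Cpt2 (SD, n = 3), and each neighbour in this order was higher in 2 of 3 libraries with overlapping ranges. Then came Slc25a20 with 19.6 ± 7.54, apart from Cpt2, and Slc22a5 and Crat with 16.8 ± 17.8 and 13.1 ± 13.7 FPKM (SD, n = 3), which overlapped with it. In the HTG group Crot (42.6 ± 20.5) and Cpt2 (31.5 ± 12.1) stood above Cpt1a (23.9 ± 6.03) in 3 of 3 libraries, with ranges that overlapped (FPKM, SD, n = 3). Slc25a20 had 14.6 ± 6.25 FPKM there, above Slc22a5 with 6.02 ± 2.19 and Crat with 5.68 ± 4.88 FPKM, without overlap between Slc25a20 and Slc22a5 (SD, n = 3). Cpt1a therefore stood at the top of the order in the HFD group and at the third place in the HTG group. On log2(FPKM + 0.1) the exact two-sided permutation test gave p = 0.1 for Cpt1a, the smallest that 3 libraries against 3 allow, and 0.3 to 0.8 for the other genes. Apart from the scaling between libraries, counts and FPKM carried the same information for these genes. The counts per FPKM, divided by each library's median, differed by at most 1.003 times between libraries. The scaling itself differed by unit. Cpt1a had 192 CPM and 25.4 FPKM in HTG library 2, and 151 CPM and 17.2 FPKM in HTG library 3.

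The ratio of Cpt1a to Cpt2, both transferases of the long-chain route, is free of the scaling between libraries. On FPKM it was 1.26, 1.14 and 1.09 for libraries 1, 2 and 3 of the HFD group and 0.649, 0.872 and 0.827 for those of the HTG group. All HFD libraries held more Cpt1a than Cpt2 and all HTG libraries less, HFD library 2 included. The mean log2 ratio differed by -0.58 between the groups (exact two-sided permutation test, p = 0.1, the smallest possible, and 0.25 adjusted over 5 ratios). The ratio of Cpt1a to Slc25a20 was 2.56 to 3.30 in the HFD group and 1.34 to 2.02 in the HTG group, also apart, with a log2 difference of -0.77 (exact p = 0.1, adjusted 0.25). The ratio to Crot overlapped, with 0.755 in HFD library 2 against 0.792 in HTG library 3 (exact p = 0.2). The ratios to Crat and Slc22a5 overlapped widely, with log2 differences of -0.16 and -0.20 (exact p = 0.8 for each). Without HFD library 2 the 5 log2 differences lay between -1.31 and -0.59. These ratios were computed after the values of the genes were known.

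**Figure D4:**
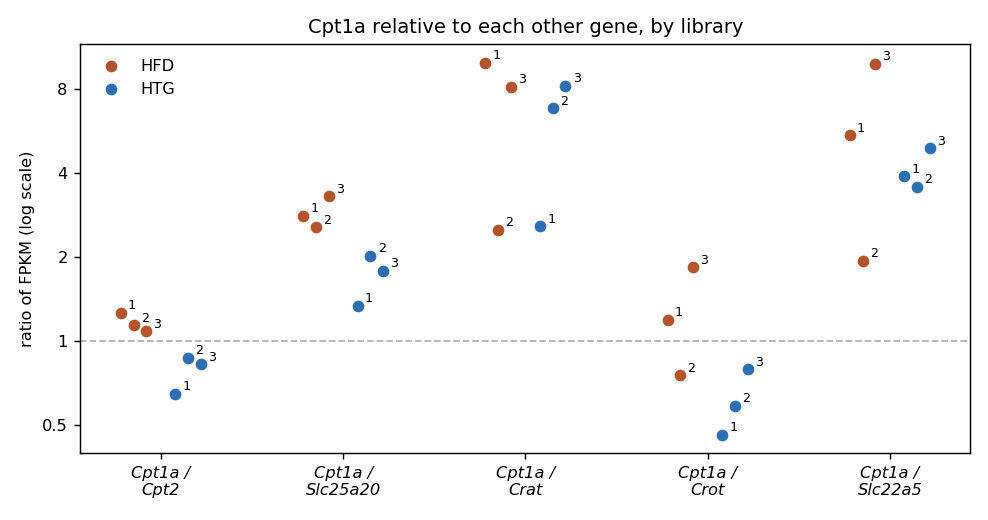
Ratio of the FPKM of Cpt1a to that of each other gene, on a log scale, with 1 point per library and its replicate number. Cpt1a to Cpt2 and Cpt1a to Slc25a20 separate the groups, and the ratios to Crat and Slc22a5 are lowest in HFD library 2.

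The other genes of carnitine handling were read next. The other CPT1 forms were scarce in these livers. Cpt1b, the muscle form, had 0.16 to 0.88 FPKM and Cpt1c, the brain form, 0.11 to 0.32 FPKM over the 6 libraries, against 17.2 to 72.4 FPKM for Cpt1a. Of 6 further carnitine transferases and transporters, 5 were in the table and tested, and 0 had an unadjusted p under 0.05 in either direction, with a median log2 fold change of 0.23. Slc22a4 and Slc22a21, the relatives of Slc22a5, had log2 fold changes of 0.32 and 0.23 with levels of at most 2.15 FPKM, and Slc16a9, a carnitine exporter, had -0.48 (edgeR, adjusted p from 0.389 to 0.781). Carnitine synthesis was represented by Aldh9a1 and Bbox1, 2 of the 3 genes listed. Bbox1, which encodes the enzyme of the last step, had 118, 121 and 134 CPM in the HFD libraries and 77.1, 53.6 and 49.3 CPM in the HTG libraries. Every HTG library was lower, and HFD library 2 lay between the other HFD libraries. The log2 fold change of Bbox1 was -1.05 (standard error 0.21, edgeR unadjusted p = 0.001, adjusted p = 0.0582) and it was -1.07 without HFD library 2. Aldh9a1, an aldehyde dehydrogenase of this route, had 174, 185 and 220 CPM against 155, 118 and 115 CPM, also without overlap, and a log2 fold change of -0.58 (edgeR, unadjusted p = 0.0209, adjusted p = 0.131).

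Control of CPT1 by malonyl-CoA was covered by 9 genes, of which 1 was lower and 0 were higher at an unadjusted p under 0.05, with a median log2 fold change of -0.15. Of all genes tested, 12.4% were lower and 12.3% higher at that p. Acacb, the acetyl-CoA carboxylase whose malonyl-CoA acts on CPT1, had 30.5, 27.5 and 332 CPM in the HFD libraries and 18.5, 26.4 and 84.3 CPM in the HTG libraries. HFD library 3 was by far the highest, so its peak fell in another library than that of the shuttle genes. Acaca, the other carboxylase, was also highest in HFD library 3, with 284 CPM against 33.3 to 112 CPM in the other 5 libraries. Neither passed the test (edgeR, adjusted p = 0.357 and 0.508). Mlycd, which breaks malonyl-CoA down, had 68.9 to 102 CPM over all libraries and a log2 fold change of -0.14. The gene with an unadjusted p under 0.05 was Prkaa2, a catalytic subunit of AMP-activated kinase, with 36.5, 52.5 and 44.0 CPM in the HFD libraries and 26.2, 20.6 and 22.1 CPM in the HTG libraries. Its log2 fold change was -0.95 (edgeR, adjusted p = 0.0582). The other catalytic subunit, Prkaa1, had 0.01 (edgeR, adjusted p = 0.981).

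Acyl-CoA synthetases make the substrate of CPT1. Acsl1, the main liver form, followed the shuttle genes with 260, 1271 and 411 CPM in the HFD libraries and 617, 393 and 184 CPM in the HTG libraries. The log2 fold change was -0.70 (edgeR, adjusted p = 0.515) and turned to 0.24 without HFD library 2. Of the 5 synthetases tested, Acsl4 alone was lower at an unadjusted p under 0.05 (12.4% of all genes), with a log2 fold change of -0.77 (edgeR, adjusted p = 0.105).

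In mitochondrial beta-oxidation, the pathway that the shuttle feeds, 6 of 15 genes were lower and 1 was higher at an unadjusted p under 0.05, with a median log2 fold change of -0.52. Of all genes tested, 12.4% were lower and 12.3% higher at that p, and the median was 0.03. Without HFD library 2, 4 of the 15 were lower and 1 higher, against 1881 and 2048 of all genes. The median of the 15 was then -0.37. The share of all genes called in that fit is not reported here. Without HTG library 1, 10 of the 15 were lower and 0 higher, against 2866 (14.8% of those tested) and 2092 of all genes. Their median was then -0.79. The smallest unadjusted p-values were those of Hadha and Hadh, which encode hydroxyacyl-CoA dehydrogenases. Hadha had 214, 407 and 272 CPM in the HFD libraries and 198, 106 and 104 CPM in the HTG libraries, a log2 fold change of -1.13 (edgeR, adjusted p = 0.0962). Hadh had a log2 fold change of -0.94 (edgeR, adjusted p = 0.0996), and in both genes every HTG library was below every HFD library. The gene higher at this threshold, named after its values were seen, was Etfb, a subunit of the electron transfer flavoprotein, with 0.52 (edgeR, adjusted p = 0.142). HFD library 2 was the highest library in 13 of the 15 genes, against 21.4% of all genes tested.

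Further along, 4 of 10 genes of peroxisomal chain shortening were lower and 0 higher at an unadjusted p under 0.05 (median log2 fold change -0.48), and 2 were lower without HFD library 2. Of all genes tested, 12.4% were lower and 12.3% higher at that p. Without HFD library 2, 1881 genes were lower, a count given here without its share. Abcd3, a peroxisomal fatty acyl-CoA transporter, had 263, 592 and 508 CPM in the HFD libraries and 229, 139 and 129 CPM in the HTG libraries, without overlap (log2 fold change -1.46, edgeR adjusted p = 0.0654). Bdh1, of ketone body synthesis, had a log2 fold change of -0.34 (edgeR, unadjusted p = 0.133). Among 8 transcription factor genes of fatty acid oxidation 3 were lower and 0 higher with an unadjusted p under 0.05, against the same 12.4% and 12.3%. Rxra, the partner of PPAR-alpha, had 381, 430 and 380 CPM in the HFD libraries and 275, 211 and 232 CPM in the HTG libraries, a log2 fold change of -0.73 (edgeR, adjusted p = 0.0785), and Foxo1 had -0.65 (edgeR, adjusted p = 0.0937). The third was Ppara, named after its values were seen, with a log2 fold change of -0.80 (edgeR, adjusted p = 0.178). No gene of these pathway lists had an adjusted p under 0.05 in edgeR with all 6 libraries. Without HTG library 1 some did, among them 3 of the beta-oxidation genes, and over all genes 419 were lower and 234 higher at that threshold. In DESeq2 4 of the beta-oxidation genes had an adjusted p under 0.05, and 1 gene each of carnitine synthesis, malonyl-CoA control, the synthetases, the peroxisomal genes and the transcription factors. Over all genes DESeq2 called 1171 lower (6.06% of the genes with an adjusted p there) and 933 higher at that threshold.

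For each of the 6 genes the most similar profiles were sought among 8014 genes with a mean of at least 10 CPM, as the root mean square difference of log2 CPM over the 6 libraries after each gene was centred on its own mean. Cpt1a was followed most closely by Acad11, an acyl-CoA dehydrogenase gene, at 0.06 log2 units, then by Entpd5 at 0.11 and Abcb6 at 0.14. Acad11 had 217, 397 and 238 CPM in the HFD libraries and 149.5, 109.9 and 97.1 CPM in the HTG libraries. The nearest genes to Cpt2 were Dhrs4, Hsd17b4 and Ctif, at 0.11 to 0.12, and those to Slc25a20 were Decr1, Rtf2 and Dhrs4, at 0.10 to 0.13. Hsd17b4 and Decr1 encode enzymes of peroxisomal and mitochondrial beta-oxidation. Crat was nearest to Plin5, a lipid droplet protein gene, at 0.13, then to Elovl3 at 0.26 and Retsat at 0.32. The nearest genes to Crot were Lgals4, Ech1 and Gm44502, at 0.20 to 0.24, and those to Slc22a5 were Hdc, Ppp2r2d and Acot4, at 0.42 to 0.44. Among the 6 genes themselves Cpt2 and Slc25a20 were the closest pair, at 0.18, and Cpt1a and Crat the farthest, at 0.80.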

How the data were processed

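Poly(A) RNA of 6 livers was sequenced by the authors with paired ends and a strand-marking kit. For each gene and library the authors deposited an estimated count in whole numbers, not scaled between libraries, and an FPKM value, scaled by transcript length and library size. The submitters' processing notes name HISAT2, StringTie, SAMtools and the rat build mRatBN7.2, although the rows are mouse genes. Their roles, the filters, the strand setting and the build of the coordinates are not given in the sources used here. All 12 value columns were mapped to the 6 samples by title.

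Estimated counts, used as whole numbers, were tested over 18455 genes with edgeR 4.0.16 (filterByExpr, TMM, glmQLFit and glmQLFTest, group only) in R 4.3.3, with Benjamini-Hochberg adjustment. Intervals of 95% used the moderated degrees of freedom. Genes at a mean FPKM of at least 1 were tested with limma 3.58.1 as an alternative, and DESeq2 1.42.0 was another. Fold changes from limma are on the log2(FPKM + 0.1) or log2(FPKM + 1) scale. The remaining alternatives are named in the closing section. Ratios and levels had exact permutation tests, whose smallest p is 0.1. The p-values of the fits set the difference between groups against the spread between libraries within a group, for these 6 libraries only. The methods of the study name general tests of group differences in SPSS, and none for the sequencing in particular. Scripts were tested on simulated counts. There, at an adjusted p under 0.05, edgeR recovered 8 of 100 genes changed by 1 log2 unit. It recovered 73 of 100 changed by 2 log2 units, and called 8 unchanged genes. A change of about 1 log2 unit would thus mostly be missed at that threshold under the simulated setting.

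The 6 genes and the gene lists were chosen with earlier results of these data known. By rule, the text names the 6 genes, genes of the carnitine, malonyl-CoA and synthetase lists, in each other pathway list the 2 genes with the smallest unadjusted p, and the 3 most similar genes of each member. Some results that the rule covers are not reported here. Tmlhe and Slc6a14 were listed and not analysed here. The reference sequences supplied are of rat and were not used here.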

Additional observations from a re-analysis of the deposited data

How the results depend on the processing

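Among the 6 genes, Cpt1a alone gained an adjusted p under 0.05 under any alternative, with a log2 fold change of -1.22 in DESeq2, -1.21 in limma on log2(FPKM + 0.1) and -1.18 on log2(FPKM + 1), while limma with no filter gave it an adjusted p of 0.104. Over 16 alternatives Cpt1a ran from -1.40 to -0.89, with an unadjusted p of 2.39e-05 to 0.0148 and an adjusted p of 0.00126 to 0.208 (edgeR, DESeq2 or limma). Leaving out 1 library at a time gave -0.96 to -0.26 for Cpt2, -0.85 to 0.018 for Slc25a20, -2.24 to 0.21 for Crat, -0.77 to 0.49 for Crot and -1.97 to -0.06 for Slc22a5. The edgeR values above 0, Slc25a20 (0.018), Crat (0.21) and Crot (0.49), were those without HFD library 2. On log2(FPKM + 0.1) without that library, the differences of Slc25a20 (-0.15) and Crat (-0.21) stayed below 0. On FPKM the Crot difference, -0.23, ran from -0.63 to 0.31 when 1 library was left out, above 0 without HFD library 2 (0.31) and without HTG library 3 (0.19). The cause of these reversals was not tested. Members lower at an unadjusted p under 0.05 numbered 2 without a filter, through Slc22a5, and 1 to 4 when 1 library was left out, while the genes lower at that p numbered 2288 in all, 2605 without a filter and 1545 to 2866 when 1 library was left out. Members lower at an adjusted p under 0.05 numbered 1 in DESeq2 and in limma with either pseudocount, and 0 to 0 when 1 library was left out. All genes lower at an adjusted p under 0.05 numbered 1 in edgeR, 1171 in DESeq2, 76 with no filter, 315 with at least 10 counts in every library, 363 with counts divided by 4, 552 and 555 in limma with a pseudocount of 0.1 and 1, 0 in limma with no filter (2712 at an unadjusted p under 0.05), and 0 to 419 with 1 library left out. The numbers higher were 1, 933, 86, 369, 459, 326, 329, 0 and 0 to 234 in that order, and limma with either pseudocount called 1413 and 1416 genes higher at an unadjusted p under 0.05, against 2275 in edgeR. The 419 and 234 were without HTG library 1, and leaving out another library gave at most 4.

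The replicate numbers gave no clear sign of pairing. The deviations of same-numbered libraries from their group means correlated over genes at -0.13, -0.113 and 0.189, and not every library correlated best with its own number. As deviations from means of 3 libraries depend on each other, these correlations cannot exclude pairing. With the replicate number as a block, 0 genes were lower and 0 higher at an adjusted p under 0.05 in edgeR (1941 and 1926 at an unadjusted p under 0.05), no call of a member changed, and Cpt1a was at -1.17 (edgeR, unadjusted p = 0.00606, adjusted p = 0.146). With 3 libraries per group, the intervals of the members other than Cpt1a cover both lower and higher levels, and a difference within them was not detectable.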
